A study of Zea mays with 7 samples.

Results

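Sites at which the H3K9ac-enriched region was much longer in husk leaves than in seedling stem tissue were examined in the maize inbred line B73, using the merged region lists of the tissues. A one-to-one site is a place where exactly 1 husk region and exactly 1 V2-IST region share at least 1 bp and neither touches another region of the other list. Sites were chosen by their measured lengths: a site counted as widened when the husk region was at least 2.5 times as long as the V2-IST region. Of 15878 one-to-one sites, 2666 were widened, which is 16.8% (95% Wilson interval 16.2 to 17.4%). They took in 9.52% of the 28004 regions of the husk list and 15.5% of the 17170 regions of the V2-IST list.

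The husk samples were 3 replicates of soft inner husk leaves of B73 plants whose ears had emerging, unpollinated silks, and V2-IST, with 2 replicates, is the inner stem that remains when the outer leaves and exposed blades of V2 seedlings are removed. All plants were untreated, greenhouse-grown B73, all ChIP used the antibody ab10812, and each tissue had 1 input sample by its labels. The tissues differ in organ and in plant stage together, so an effect of one cannot be told apart from an effect of the other, and both are mixtures of cell types. The deposited lists give 1 merged set of regions per tissue, with a start and an end and no signal, read count or replicate. The depth of each library is therefore not known from them, the read numbers that the study gives for its libraries were not used here, no spread between replicates can be computed, and no test between the tissues was made. Intervals below are 95% intervals that cover counting error over sites only, and ranges over the 10 chromosomes are given as the measure of spread. Sites are not replicates of a tissue.

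Acetylation of lysine 9 on histone H3 (H3K9ac) neutralises the charge of the histone tail, is recognised by proteins that open chromatin and recruit the transcription machinery, and is removed by histone deacetylases. In plants it lies mainly at the 5′ ends of transcribed genes, over the start site and the first part of the gene body, and also at active enhancers. A peak caller turns the read density of such a mark into regions with sharp ends, so a longer region means that the enriched stretch above the caller's cutoff reached farther. It does not by itself say how strong the mark was. Merging also differed between the tissues, because overlapping peaks of 3 husk replicates but only 2 V2-IST replicates were joined, and joining more peaks can lengthen a region. The study ascribes the greater length of husk regions partly to this merging. The part of merging in the widening was not tested. The median region of the husk list was 1015 bp and that of the V2-IST list 603 bp, so a husk region of typical length already exceeded its V2-IST counterpart.

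The values that chose the sites are given first, as a description. Widened sites had a median husk region of 1835.5 bp (interval 1789 to 1883) against a median V2-IST region of 495 bp (interval 485 to 505). At the other 13212 one-to-one sites the median husk region measured 936 bp and the median V2-IST region 626 bp. Widened sites thus paired a region from the upper end of the husk list, at the 82.4th percentile of length for the median site, with one from the lower end of the V2-IST list, at the 31.0th percentile. For the other sites these percentiles were 43.9 and 53.4. The middle of the widened sites spanned 1312 to 2706.5 bp in husk and 372 to 678 bp in V2-IST between the lower and upper quartiles, so the quartile ranges of the tissues did not overlap.

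The ratio of husk to V2-IST length had a median of 3.32 at widened sites, with quartiles of 2.81 and 4.38 and a maximum of 21.9, against a median of 1.50 at the other sites. Many members lay near the threshold. A ratio under 3 was found at 964 sites (36.2%), a ratio of 5 or more at 491 (18.4%) and a ratio of 10 or more at 51 (1.91%). The distribution ran smoothly across the threshold, with 547 sites between 2.5 and 2.75 and 734 between 2.25 and 2.5. The 3 sites just inside had ratios of 2.501, 2.502 and 2.502, such as 1831 bp in husk against 732 bp in V2-IST at chr6:158329761-158331591. The 3 sites just outside each had a ratio of 2.499, such as 1167 bp in husk against 467 bp in V2-IST at chr5:162969334-162970500. Widened sites are therefore the tail of a continuous range and not a separate class.

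**Figure D1:**
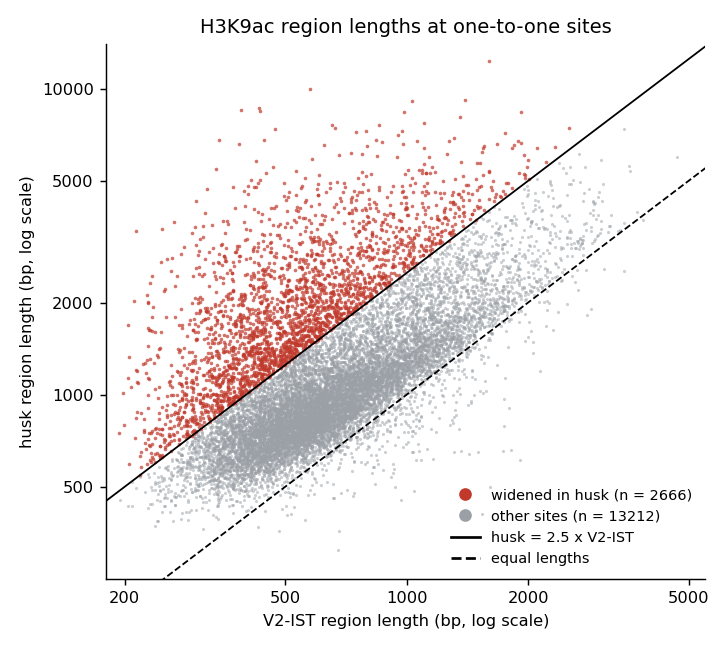
Each point is 1 one-to-one site, with the V2-IST region length on the x axis and the husk region length on the y axis, both in bp on log scales. Red points are the 2666 widened sites and grey points the other 13212, the solid line marks the ratio of 2.5 that separates them by rule, and the dashed line marks equal lengths; the points form 1 cloud that the solid line divides.

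In sum of length, the widened sites covered 5828538 bp in husk and 1530319 bp in V2-IST, a ratio of 3.81, while the other sites covered 14666066 bp in husk and 9784842 bp in V2-IST, a ratio of 1.50. The mean region at widened sites was 2186 bp long in husk and 574 bp in V2-IST. Over all one-to-one sites husk regions held a net 9179443 bp more than V2-IST regions, and 46.8% of it came from the widened sites. These regions made up 16.1% of the bp in the husk list and 12.5% of those in the V2-IST list.

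How often a site counted as widened depended on how long its V2-IST region was. Among sites with a V2-IST region under 300 bp, 58.0% were widened, 275 of 474 (interval 53.5 to 62.4%). The share was 30.8% for 300 to 400 bp, 19.3% for 400 to 500 bp, 14.0% for 500 to 700 bp, 11.5% for 700 to 1000 bp and 9.18% for 1000 bp or more. A ratio favours short denominators, and the shortest V2-IST regions are also those nearest the smallest length a caller reports. In bp the widened sites with long V2-IST regions gained most. The ratio rule asks for a larger gain in bp from a longer V2-IST region, so this order is a description only. The 240 widened sites with a V2-IST region of at least 1000 bp had a median husk region of 3983 bp against 1213.5 bp in V2-IST, while the 275 with a V2-IST region under 300 bp had 927 bp in husk against 265 bp in V2-IST.

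Seen from the husk side, the share of widened sites rose with the length of the husk region. Husk length is part of the ratio that chose the sites, so the values by husk length are a description only. Of the 760 sites with a husk region of at least 3000 bp, 69.2% (interval 65.8 to 72.4%) were widened, against 46.7% for 2000 to 3000 bp, 35.2% for 1600 to 2000 bp, 21.6% for 1200 to 1600 bp, 7.50% for 800 to 1200 bp and 2.14% under 800 bp. Husk regions over 5000 bp were found at 95 widened sites (3.56%) and at 13 other sites (0.0984%).

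The gain itself, the length of the husk region minus that of the V2-IST region, had a median of 1303 bp at widened sites (quartiles 882 and 2025, range 329 to 10752) and of 301 bp at the other sites. The husk region held the whole V2-IST region at 2591 widened sites (97.2%, range over chromosomes 96.2 to 98.2%), against 88.6% of the other sites (range 86.5 to 90.9%). Some overlap was required of every site, so V2-IST regions without a husk region could not enter. At the remaining 75 widened sites the V2-IST region reached beyond the husk region by up to 487 bp. A longer husk region has more room to hold the V2-IST region, so this difference follows in part from the rule.

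Most of the gain lay on 1 side. Each site was split into the 2 stretches of the husk region that flank the V2-IST region, and the longer stretch had a median of 1057.5 bp and the shorter of 166 bp at widened sites, against 210 bp and 81 bp at the other sites. The longer side thus differed far more between the sets of sites than the shorter side. For shares of the gain, a side where the V2-IST region reached beyond the husk region was left out. Such a site with gain on the other side counted as fully one-sided. The V2-IST region reached beyond the husk region at 75 widened sites (2.81%) and at 1500 of the others (11.4%). At least 80% of the gain lay on 1 side at 1649 widened sites, 61.9% (interval 59.99 to 63.7%, range over chromosomes 57.7 to 69.3%), against 36.1% of the other sites (range 33.3 to 37.8%), and the share was higher for widened sites on 10 of 10 chromosomes. The gain on each side comes from the same region ends as the lengths that chose the sites, so these values are a description. These one-sided sites had a median husk region of 1928 bp against 506 bp in V2-IST, with 1266 bp gained on one flank and 108 bp on the other.

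As a share of the gain, balanced extension on both sides was less common at widened sites than at the others, but in bp gains on both sides were more common. A balanced gain, with at most 60% on the longer side, was seen at 237 widened sites (8.89%), with medians of 753 bp on the longer and 609 bp on the shorter side, against 22.0% of the other sites. Large gains in bp follow from the lengths that the rule used and are given as a description only. At least 200 bp was gained on both sides at 42.9% of widened sites against 6.80% of the others. At least 500 bp was gained on both sides at 390 widened sites (14.6%), against 81 of the other sites (0.613%). At least 1000 bp on the longer side was gained at 53.0% of widened sites against 2.93% of the others, at least 2000 bp at 17.2% against 0.204%, and at least 3000 bp at 155 widened sites (5.81%) against 1 of the others (0.00757%).

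**Figure D2:**
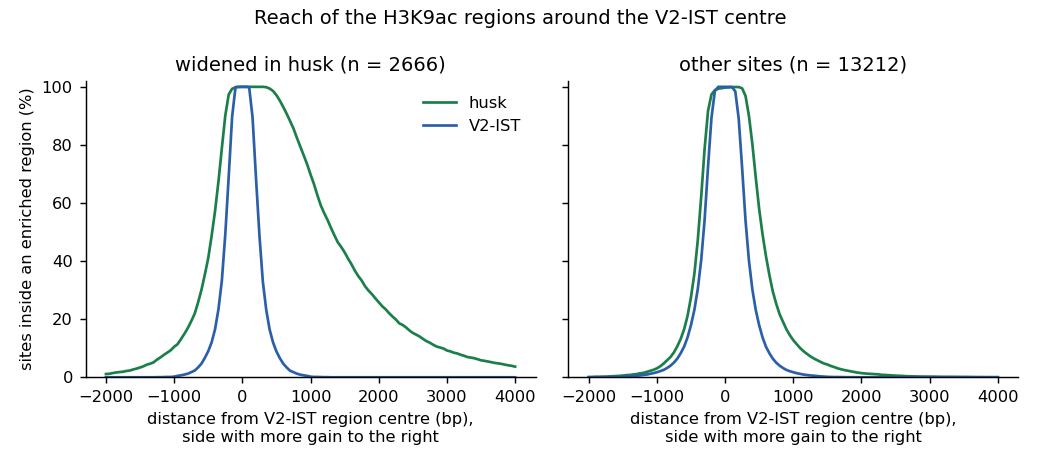
The lines give the percent of sites at which a position lies inside the husk region (green) or the V2-IST region (blue), by distance in bp from the centre of the V2-IST region, with the side of the larger gain to the right. For widened sites (left), husk covered 69.8% of sites at 1000 bp and 25.8% at 2000 bp to the right but 10.5% at 1000 bp to the left; for the other sites (right), husk covered 12.8% at 1000 bp to the right and 3.07% to the left.

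The profile drawn around the V2-IST centre shows the same asymmetry as a slope without a step: at widened sites, on the longer side husk regions still covered 97.1% of sites at 500 bp, 43.0% at 1500 bp and 9.23% at 3000 bp. Husk regions therefore did not stop at a common distance. The V2-IST line was narrower at widened sites than at the others, at 8.89% against 17.9% of sites at 500 bp. On the chromosomes the longer side had no preferred direction, lying toward higher coordinates at 50.9% of widened sites (interval 49.0 to 52.8%) and 50.2% of the others.

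The share of one-sided sites rose little with the ratio. It was 57.8% (interval 54.6 to 60.9%) for the 964 sites with a ratio of 2.5 to 3, 63.1% for the 846 with 3 to 4, 64.2% for the 589 with 4 to 6 and 67.4% (interval 61.6 to 72.8%) for the 267 with 6 or more. The higher classes combined longer husk regions with shorter V2-IST regions. Their medians, from the lowest ratio class to the highest, were 1445, 1726, 2243 and 3361 bp in husk, against 525, 504.5, 462 and 417 bp in V2-IST. The husk length thus changed more over the classes than the V2-IST length. In each of the 6 V2-IST length classes the one-sided share was higher for widened sites (48.4 to 66.7%) than for the others (10.6 to 50.9%). Among sites of like husk length it was also higher in 6 of 6 classes, but by less than over all sites together. It was 31.2% of widened sites against 28.8% of the others under 800 bp, 52.5% against 32.9% for 800 to 1200 bp and 63.0% against 44.7% for 1200 to 1600 bp. For longer husk regions it was 62.6% against 51.0% for 1600 to 2000 bp, 69.1% against 56.7% for 2000 to 3000 bp and 64.3% against 55.1% for 3000 bp or more.

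The largest ratio was found near the end of chromosome 10. A husk region of 8502 bp at chr10:145393295-145401796 held a V2-IST region of 389 bp at its upper end, chr10:145401290-145401678, and 98.5% of the gain, 7995 bp, lay on the lower side (ratio 21.9). A husk-only region, meaning one that overlaps no V2-IST region, lay 4729 bp away. The next 2 sites by ratio showed both forms of gain. At chr2:214676554-214685223 the husk region measured 8670 bp against 430 bp in V2-IST and extended to both sides, by 4992 and 3248 bp. At chr10:137270510-137277303 it measured 6794 bp against 343 bp in V2-IST, with 5562 bp on the higher side and 889 bp on the lower.

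By gain in bp the first site was chr2:17736695-17749042, which also held the longest husk region of any widened site. It measured 12348 bp against 1596 bp in V2-IST, and 9966 of the 10752 bp gained lay on the lower side. At chr1:281970560-281980520 the husk region measured 9961 bp against 575 bp in V2-IST, with 5592 and 3794 bp gained on the 2 sides. At chr6:146674617-146683748 it measured 9132 bp against 1028 bp in V2-IST, with 7495 bp gained on the higher side. These regions are several times longer than the median widened husk region, and none of the 3 had a husk-only region within 20 kb.

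At the low end, the shortest husk region of a widened site, chr5:195879213-195879759, measured 547 bp against 218 bp in V2-IST, so a gain of 329 bp was enough. The shortest V2-IST region of a widened site, 193 bp at chr9:155632863-155633055, lay in a husk region of 747 bp. The longest V2-IST region of a widened site, 2523 bp at chr1:56143652-56146174, lay in a husk region of 7453 bp, with 2171 and 2759 bp gained on its sides. The set therefore spans small extensions of short regions and multi-kilobase extensions of long ones.

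The neighbourhood of a site was not used by the rule. A husk-only region lay within 5 kb of the husk region at 508 widened sites, 19.1% (interval 17.6 to 20.6%, range over chromosomes 16.9 to 22.9%), against 11.9% of the other sites (interval 11.4 to 12.5%, range 10.9 to 13.1%). The share was higher for widened sites on 10 of 10 chromosomes, and the ranges over chromosomes did not overlap. Within 2 kb the shares were 8.40% for widened sites and 3.80% for the others, and within 10 kb they were 28.5% and 20.5%. A long husk region brings its own ends closer to its neighbours. Measured from the V2-IST region instead, an alternative added after seeing the data, 16.0% of widened sites (range over chromosomes 13.0 to 19.6%) and 11.4% of the others (range 10.2 to 12.6%) had a husk-only region within 5 kb.

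Any other husk region lay within 5 kb of 35.9% of widened sites against 22.7% of the other sites. Another V2-IST region lay within 5 kb of the V2-IST region at 405 widened sites (15.2%, range 11.2 to 19.1%) against 11.0% of the others (range 9.19 to 13.4%); the share was higher for widened sites on 10 of 10 chromosomes, though the ranges overlapped. Without matching on length, widened sites thus lay in stretches with more regions of both lists. Of these neighbour shares, only that of a husk-only region was also compared within length classes. The one-to-one condition bears on these values, since it left out the 170 husk regions that each overlapped 2 or more V2-IST regions. Where a husk-only region was near a widened site, it lay on the side of the larger gain at 303 of 508 sites (59.6%, interval 55.3 to 63.8%), against 884 of 1569 (56.3%, interval 53.9 to 58.8%) for the others, and these intervals overlapped.

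Within classes of V2-IST length, a husk-only region within 5 kb was found at 12 to 22.8% of widened sites against 8.04 to 15.6% of the others, higher for widened sites in each of the 6 classes. Within classes of husk length the share was higher for widened sites in 5 of the 6 classes, by less than over all sites together. No intervals were computed for these class shares. It was 13.5% of widened sites against 9.99% of the others for 800 to 1200 bp, 16.1% against 14.4% for 1200 to 1600 bp, 23.8% against 17.1% for 1600 to 2000 bp, 20.6% against 18.6% for 2000 to 3000 bp and 22.2% against 17.9% for 3000 bp or more. Under 800 bp the widened sites had the lower share, 9.68% against 10.6%. The share also differed between ratio classes, with 16.6% (interval 14.4 to 19.1%) for ratios of 2.5 to 3 and 24.3% (interval 19.6 to 29.8%) for 6 or more.

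**Figure D3:**
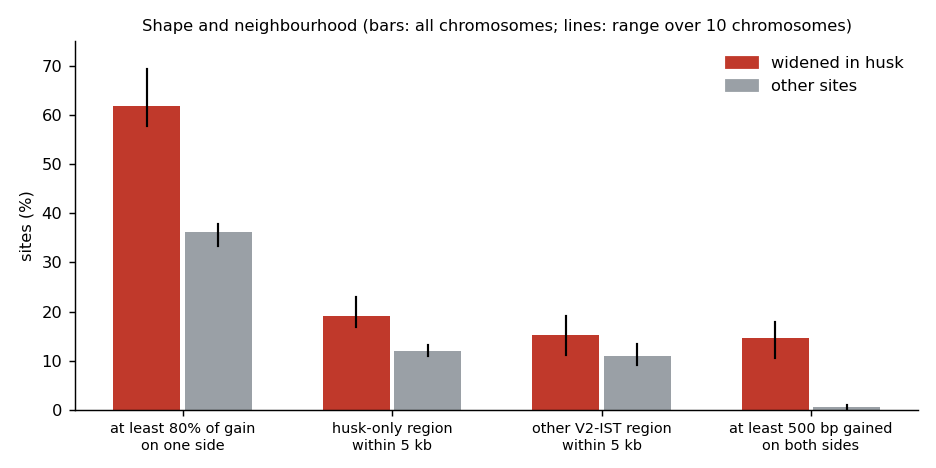
Bars give the percent of widened sites (red) and of other one-to-one sites (grey) with each of 4 properties, and black lines give the range over the 10 chromosomes. One-sided gain (61.9% against 36.1%), a husk-only region within 5 kb (19.1% against 11.9%) and a gain of at least 500 bp on both sides (14.6% against 0.613%) have ranges that do not overlap between the sets, while those of another V2-IST region within 5 kb (15.2% against 11.0%) do; both measures of gain come from the region ends that also gave the lengths used to choose the sites.

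Widened sites were found on all 10 chromosomes in similar proportion. Their share of one-to-one sites lay between 14.7% on chromosome 10 (interval 12.7 to 16.9%) and 18.4% on chromosome 9 (interval 16.3 to 20.7%), and their number per Mb between 0.992 on chromosome 4 and 1.52 on chromosome 5. The median husk region of widened sites varied between 1679 bp on chromosome 4 and 1989 bp on chromosome 3, and the median V2-IST region between 451.5 bp on chromosome 9 and 525 bp on chromosome 7. These median lengths differed little from chromosome to chromosome. The same ratio cutoff chose the sites on each of them, so this likeness is a description only.

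Along the chromosomes the share was lowest in a stretch before the middle. Maize genes are densest on the outer chromosome arms, and the middle parts around the centromeres are rich in transposable elements. With each chromosome divided into 10 equal parts of its length, 18.7% of one-to-one sites were widened in the first part (interval 17.1 to 20.4%) and 18.2% in the second. The share was 13.4% in the third, 11.3% in the fourth (interval 9.40 to 13.5%), 11.6% in the fifth (interval 9.66 to 13.9%) and 13.1% in the sixth. It was 16.7% in the seventh and in the eighth, 17.98% in the ninth and 19.9% in the last (interval 18.5 to 21.4%).

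**Figure D4:**
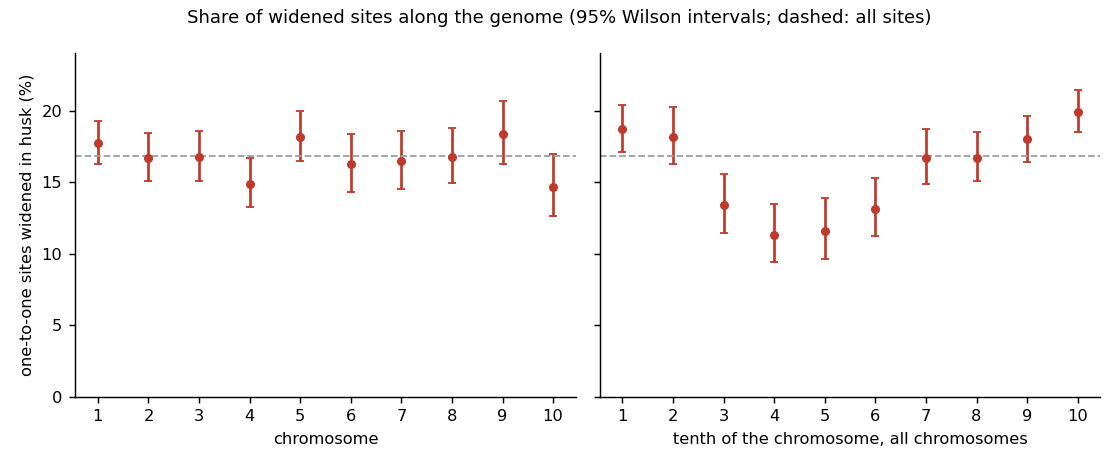
Points give the percent of one-to-one sites that were widened in husk, per chromosome (left) and for 10 equal parts of the chromosome length over all chromosomes (right), with 95% Wilson intervals, and the dashed line marks 16.8%, the value over all sites. The chromosomes lie between 14.7 and 18.4%, while the parts dip to 11.3% in the fourth and reach 19.9% in the last.

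Widened sites were mostly single. The next one-to-one site along the chromosome was also widened after 496 of 2666 widened sites (18.6%, interval 17.2 to 20.1%), against 2170 of 13202 other sites (16.4%, interval 15.8 to 17.1%), a small difference with intervals that do not overlap. In all 1760 widened sites stood alone in this order, 341 runs held 2, 55 held 3, 11 held 4 and 3 held 5. One of the runs of 5 lay on chromosome 1, where 4 of its members fell between 44512919 and 44533153. Their husk regions measured 1157, 1415, 1230 and 1597 bp, against 416, 432, 425 and 541 bp in V2-IST. The V2-IST regions were alike in length at these 4 sites, and so were the husk regions. The fifth member, chr1:44167040-44169317, measured 2278 bp in husk against 449 bp in V2-IST. In the other runs of 5, both on chromosome 2, husk regions measured 850 to 3614 bp and 987 to 4112 bp.

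Of 2087 windows of 1 Mb with a one-to-one site, 1295 held a widened site and 79 held 5 or more. The window with the most, 10 of 33 one-to-one sites, was chr5:221000001-222000000. Its widened sites had husk regions of 1216 to 4608 bp, against V2-IST regions of 334 to 1089 bp, so they were of ordinary size for the set. The longest of them, chr5:221706057-221710664, gained 3396 bp on the higher side and 123 bp on the lower and had a husk-only region 977 bp away.

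Gene models on the same assembly were at hand for 823 genes only, all of them next to enhancer candidates that the study had selected on chromatin and expression in these tissues, so they are no sample of maize genes. Positions and strands were used and nothing else, and genes are named by identifier. The husk region overlapped the start of a listed gene at 288 one-to-one sites, and 92 of these were widened (31.9%, interval 26.8 to 37.5%). That share is above the 16.8% of all sites, but long husk regions have more chance to reach a start. When the V2-IST region had to overlap the start, 20 of 127 sites were widened (15.7%, interval 10.4 to 23.1%), a value whose interval includes 16.8%. With the V2-IST region within 1 kb of the start, a choice added after seeing the data, it was 103 of 404 (25.5%, interval 21.5 to 30.0%).

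At those 103 widened sites the husk region of the median gene reached from 538 bp upstream to 1941 bp downstream of the start, while the V2-IST region began 131 bp downstream and ended 874 bp downstream. At the 301 other pairs of a site and a gene the husk region reached from 51 bp upstream to 1154 bp downstream, and the V2-IST region from 61 bp to 848 bp downstream. The longer husk reach was set by the choice of sites, and its split between the 2 directions is a description. The start itself was inside the husk region for 81.6% of the widened pairs and inside the V2-IST region for 19.4% (interval 12.9 to 28.1%), against 65.1% and 35.5% (interval 30.4 to 41.1%) for the other pairs.

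**Figure D5:**
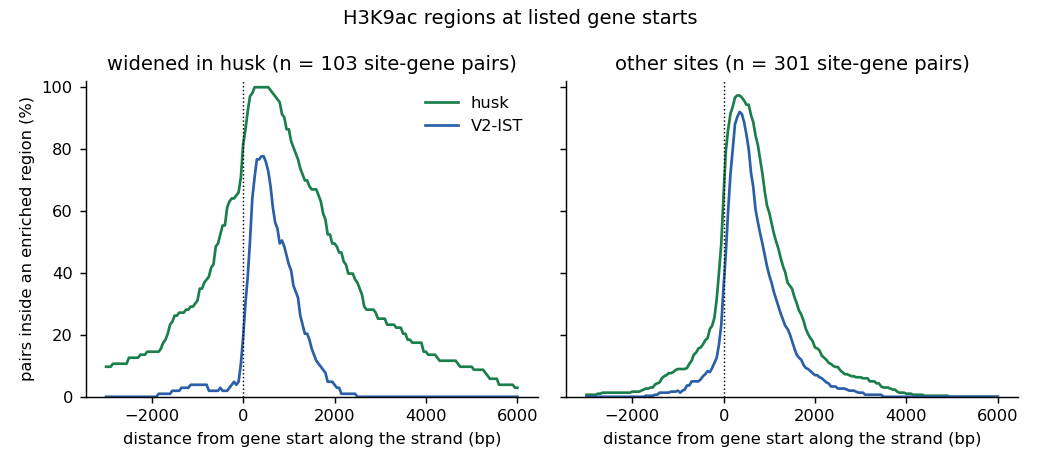
The lines give the percent of site and gene pairs at which a position lies inside the husk region (green) or the V2-IST region (blue), by distance in bp from the gene start along the strand, for 103 widened pairs (left) and 301 others (right). At 500 bp upstream husk covered 52.4% of widened pairs and V2-IST 2.91%, against 15.9% and 5.65% of the other pairs; at 2000 bp downstream husk covered 49.5% and V2-IST 3.88% of widened pairs, against 15.9% and 6.98% of the others.

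Relative to the V2-IST region, the median gain at the 103 widened pairs was 728 bp on the side facing upstream of the gene (quartiles 169 and 1551.5) and 1196 bp on the side facing downstream (quartiles 545 and 1880.5). At the other pairs it was 110 bp (quartiles 69 and 183) and 254 bp (quartiles 135 and 471). The larger gain faced downstream, into the gene body, at 62.1% of widened pairs (interval 52.5 to 70.9%) and 69.4% of the others (interval 64.0 to 74.4%), so the intervals overlap. With the husk region required to overlap the start, the larger gain faced downstream at 46 of the 92 widened pairs (interval 39.99 to 60.01%) and 129 of 196 other pairs (65.8%, interval 58.9 to 72.1%). With the V2-IST region required to overlap the start, it faced downstream at 10 of 20 widened pairs and 70 of 107 others. The husk region covered the whole gene at 39.8% of the 103 widened pairs against 19.9% of the 301 others, with median gene lengths of 2778 and 3606 bp. The rule chose long husk regions, which cover a whole gene more readily, so this contrast is a description only.

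Single genes show the forms this took. The husk region with the largest ratio at a listed start was that of Zm00001d003848 on chromosome 2 (chr2:62255430-62263860). It measured 8431 bp against 434 bp in V2-IST, began 26 bp upstream of the start and ran 8405 bp downstream, past the end of a gene of 8305 bp, while the V2-IST region lay from 213 to 647 bp downstream. Zm00001d025590 on chromosome 10 showed the same form: its husk region of 6376 bp ran from 43 bp upstream to 6333 bp downstream of the start of a gene of 6517 bp, against a V2-IST region of 1101 bp that began 25 bp downstream. At both genes H3K9ac was listed over the first part of the gene in V2-IST and over nearly all of it in husk.

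At other genes the gain faced upstream. At Zm00001d026192 on chromosome 10 the husk region measured 3955 bp against 429 bp in V2-IST, and it reached 3344 bp upstream but only 611 bp into a gene of 9928 bp, with 3358 bp of gain on the upstream side and 168 bp on the downstream side. At Zm00001d048294 on chromosome 9 it measured 6571 bp against 384 bp in V2-IST and reached 4733 bp upstream and 1838 bp downstream of the start of a gene of 201 bp. Upstream stretches of this kind can hold other genes, which were not analysed here.

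At Zm00001d043950 on chromosome 3 (husk 4703 bp against V2-IST 319 bp) the gain was shared, with 2041 bp on the upstream and 2343 bp on the downstream side, and at Zm00001d029899 on chromosome 1 (husk 3537 bp against V2-IST 298 bp) it was 1143 and 2096 bp. Both V2-IST regions lay just inside the gene. A last form placed the V2-IST region away from the start: at Zm00001d036788 on chromosome 6 the V2-IST region of 423 bp lay 3959 to 4382 bp downstream, beyond the end of a gene of 3957 bp, and the husk region of 4763 bp joined it to the start. At Zm00001d043293 on chromosome 3 the V2-IST region of 443 bp lay 3017 to 3460 bp downstream in a gene of 3713 bp, and the husk region of 6796 bp reached from 3174 bp upstream to 3622 bp downstream. At these genes a listed husk region covered a start that no listed V2-IST region covered. The lists hold no signal, so they do not show whether the mark was absent there in V2-IST.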

How the data were processed

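H3K9ac ChIP-seq reads of 2 V2-IST and 3 husk replicates were, per the study's methods, aligned by the authors to B73 RefGen_v4 with BWA, filtered with SAMtools at a mapping quality of 20, and peaks were called per replicate against input with MACS2 (q-value 0.001). Peaks overlapping by at least 70% between replicates were kept and merged; in husk the third replicate was set against the merged first pair. Each library pooled several ChIP samples. Tool versions are not given in the sources used here. Deposited by the authors were the chromosome, start and end (bp) of every merged region, without score, count or depth. Printed coordinates are 1-based.

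One-to-one sites, gains and gaps were computed in Python 3.11.15 with numpy 2.4.6 and scipy 1.17.1, checked against bedtools 2.31.1 and tested on simulated data. Figures were drawn with matplotlib 3.10.9. Shares have 95% Wilson intervals and medians order-statistic intervals. Columns without a sample numbered 0. The sites and lists were chosen with earlier results of these data known. Named sites are those with the 5 largest ratios, 5 largest gains, 3 values on each side of the threshold, the extreme lengths, the longest runs, the densest 1 Mb window, and, at gene starts, the 10 largest ratios and 5 largest downstream gains; not every one is described. Positions and strands of 823 genes came from the study's supplementary gene table. Sequences and other gene annotation were not analysed here.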

Additional observations from a re-analysis of the deposited data

How the results depend on the processing

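No paired analysis was possible because each list merges its replicates, and for the same reason no replicate could be left out. The number of widened sites was 4582 (28.9% of one-to-one sites) at a ratio threshold of 2, 1702 (10.7%) at 3, 1311 (12.1%) with V2-IST regions of at least 500 bp only, and 741 (4.67%) when each length was divided by the median of its list, which puts the threshold at a ratio of 4.21 in bp. The share with at least 80% of the gain on 1 side was 54.6%, 64.2%, 64.4% and 65.3% under these 4 settings, and 35.1% of widened sites had at least 90% there. A husk-only region within 5 kb was found at 17.2% at a threshold of 2, at 20.7% with V2-IST regions of at least 500 bp, and at 16.0% when measured from the V2-IST region; within 2 kb it was 8.40% and within 10 kb 28.5%. Another V2-IST region lay within 5 kb at 13.4% with scaled lengths, within 2 kb at 1.61% and within 10 kb at 31.5%. At gene starts 48.3% of sites were widened at a threshold of 2 and 22.6% at 3, 15.7% when the V2-IST region overlapped the start, and 25.5% when it lay within 1 kb, where the median share of the gain on the downstream side was 65.6% against 50.5% as reported. Joining regions less than 200 bp apart or asking for an overlap of 50% of the V2-IST region kept all values within their intervals. Of 24 alternatives for lengths and containment, 13 moved, 5 lower and 8 higher. In 6 of 6 settings of the site rule, one-sided gain, containment, a husk-only region and another V2-IST region within 5 kb were each more frequent at widened than at other sites. These settings reuse the same lists and are not independent checks. One-sided gain and containment come from the region ends that gave the lengths, so their order is a description only. The lists carry no depth, and the read numbers that the study gives were not used here, so no limit set by depth was computed.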
